A study of Mus musculus with 38 samples.

Results

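Promoters of plasma membrane and lysosomal amino acid transporter genes were followed in mouse soleus muscle through daily torpor, a state of lowered metabolism that a fasted mouse enters in the cold. Member promoters were taken as clusters of nAnT-iCAGE tags whose peak lay within 500 bp, on the same strand, of an annotated transcript 5′ end of 1 of 10 transporter genes: *Slc7a1*, *Slc7a2*, *Slc7a5*, *Slc7a8*, *Slc3a2*, *Slc38a2*, *Slc38a4*, *Slc1a5*, *Slc43a1* and *Slc36a1*. The rule gave 8 clusters, out of 10819 in the table, for 7 of the 10 genes. No cluster lay in the window of *Slc7a1*, *Slc7a5* or *Slc7a8*, and these 3 genes are reported here as absent from the table of clusters. CAGE (cap analysis of gene expression) reads 1 tag from the 5′ end of each capped RNA, so a TPM value (tags per 1000000 tags of the library) counts RNA ends and does not depend on transcript length.

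All mice were C57BL/6J males carrying no transgene or deletion by the labels, and 1 library was made from each mouse, from 1 or both soleus muscles. Experiment #1 held 28 libraries. Pre mice (n = 4) were sampled on day 1 with food, Mid mice (n = 8) on day 2 without food, and Post mice (n = 4) on day 3 after food was returned. The paper describes Mid mice as widely spread in metabolic rate, some torpid and some between torpid states at sampling. HiT mice (n = 4) were sampled on day 2 without food at a high ambient temperature, and Fed mice (n = 4) on day 2 with food at the low temperature. Dep mice (n = 4) were sampled on day 2 after being touched gently whenever they began to enter torpor. The methods remove food at the start of day 2 by default and state no exception for Dep mice, so these were taken as fasted. A high temperature is stated for HiT mice alone. Experiment #2 held 10 libraries of independent mice, with 2 Pre, 5 Mid and 3 Post. The label of the Fed libraries names starvation as their condition and the series text gives the HiT mice food, whereas the methods of the study withdraw food from HiT mice and leave it with Fed mice, so the food state of these groups rests on the methods. Since whole muscle was sampled, fewer cells of a type and less RNA per cell cannot be told apart.

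Amino acid transporters move amino acids across the plasma membrane or out of the lysosome, and muscle both stores amino acids as protein and releases them in fasting. System L exchangers pair a light chain, such as *Slc7a5* or *Slc7a8*, with the heavy chain *Slc3a2* (CD98), which brings it to the surface, whereas *Slc43a1* carries large neutral amino acids without a partner. *Slc38a2* and *Slc38a4* draw small neutral amino acids in with sodium, *Slc1a5* exchanges glutamine and other neutral amino acids, *Slc7a2* and *Slc7a1* carry arginine and lysine, and *Slc36a1* exports small amino acids with protons, mainly from lysosomes. *Slc38a2* is widely known as a gene that amino acid shortage induces.

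Of the 8 clusters, 7 had their peak at the annotated start of their gene in the mm10 build and 1 in exon 2. Positions and distances are those of the deposited peak base, and any shift of it from the true start was not corrected. The cluster of *Slc43a1* spanned chr2:84839308-84839606 on the plus strand with its peak at 84839415 in exon 1. The cluster of *Slc3a2* spanned chr19:8713275-8713945 on the minus strand with its peak at 8713876 in exon 1, within the 5′ UTR. *Slc38a2* had 2 clusters on the minus strand of chromosome 15. The main cluster spanned chr15:96699631-96699792 with its peak at 96699709 in exon 1. A second cluster spanned chr15:96698652-96698915 with its peak at 96698804, the 14th base of exon 2 of the coding transcript and still within the 5′ UTR, 905 bases downstream of the first. *Slc38a4* had a cluster at chr15:97055856-97056027 on the minus strand, and its peak at 97055958 was 2 bases upstream of the annotated end. The cluster of *Slc1a5* lay at chr7:16781317-16781686 on the plus strand with its peak at 16781367 in exon 1. The cluster of *Slc7a2* lay at chr8:40862332-40863028 on the plus strand, and its peak at 40862392 was 4 bases upstream of the annotated end. *Slc36a1* had a cluster at chr11:55204295-55204414 on the plus strand, with its peak at 55204360 in exon 1.

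The start regions of the members that differed between conditions, other than *Slc7a2*, and of *Slc36a1* are shown because they are the sequences the tags came from. The RefSeq promoter windows used had no entry for *Slc7a2* or *Slc1a5*. For 4 clusters the peak lay inside the RefSeq promoter window (GRCm38.p6), and the 203 bases from 200 before the peak to 2 after it are given. For *Slc43a1* and for the exon 2 cluster of *Slc38a2* a stretch of 30 transcript bases around the peak is given. The first group runs over chr11:55204160-55204362 (plus), chr15:96699707-96699909 (minus), chr15:97055956-97056158 (minus) and chr19:8713874-8714076 (minus), and the 30-base stretches over chr2:84839400-84839429 (plus) and chr15:96698788-96698817 (minus). Capitals mark the deposited peak base with the 2 bases after it, and any motif match.
Slc36a1: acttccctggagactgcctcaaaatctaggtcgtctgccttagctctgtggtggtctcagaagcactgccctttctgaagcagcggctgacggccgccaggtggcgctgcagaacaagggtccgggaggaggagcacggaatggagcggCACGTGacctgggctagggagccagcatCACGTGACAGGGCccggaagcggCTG
Slc38a2 exon 1: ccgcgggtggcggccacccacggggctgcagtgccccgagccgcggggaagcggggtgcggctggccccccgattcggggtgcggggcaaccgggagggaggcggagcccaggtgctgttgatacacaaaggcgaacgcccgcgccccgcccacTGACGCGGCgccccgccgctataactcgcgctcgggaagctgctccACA
Slc38a4: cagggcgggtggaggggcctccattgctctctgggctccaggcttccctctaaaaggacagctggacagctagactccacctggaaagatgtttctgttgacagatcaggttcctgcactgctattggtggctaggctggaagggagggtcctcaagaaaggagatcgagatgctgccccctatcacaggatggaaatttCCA
Slc3a2: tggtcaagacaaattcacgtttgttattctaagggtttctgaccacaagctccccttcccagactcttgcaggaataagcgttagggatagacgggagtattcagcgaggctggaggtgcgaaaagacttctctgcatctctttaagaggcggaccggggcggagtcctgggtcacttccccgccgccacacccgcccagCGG
Slc43a1: tcaactccgcagatcGCGtagtccatgccc
Slc38a2 exon 2: gcagcctcgagggCCAgtgcgccgccaagg

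Over the clusters of the table that could be matched to the promoter windows, the pyrimidine-purine pair typical of transcription starts was found most often 2 bases downstream of the deposited peak base, in 77.6% of 2481 plus strand clusters and 79.1% of 2287 minus strand clusters, against 22.1% and 23.3% at the peak base itself. In 5 of the 6 sequences above, all but that of *Slc3a2*, the capitals at the peak end in such a pair. Motifs were sought only in the RefSeq windows that held a member peak, so not for *Slc7a2*, *Slc1a5*, *Slc43a1* or the exon 2 cluster of *Slc38a2*. Both strands were searched for TGATGNAA, the core of the amino acid response element, for TGACGTCA, the cyclic AMP response element, and for TGACNNNGC, the antioxidant response element. The FOXO motif searched was GTAAACA. The E-box motif was CACGTG and the TATA box motif was TATAAA. The window of *Slc36a1* held CACGTG from base −51 to −46 and again from −23 to −18, counted from the peak base at 0, and TGACAGGGC, a match to the antioxidant response element, overlapped the second of these. The exon 1 window of *Slc38a2* held TGACGCGGC from base −46 to −38. That window ended downstream at base 96699679, so most of the stretch between the 2 *Slc38a2* clusters was not searched for any motif. Among 32851 RefSeq promoter windows, 7.15% held the E-box motif, 12.4% the antioxidant response element, 3.97% the amino acid response element core, 1.79% the cyclic AMP response element, 3.65% the FOXO motif and 13.6% the TATA box motif. None of these motifs was in the windows of *Slc38a4* or *Slc3a2*.

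Libraries of experiment #1 held 18257657 to 39176649 tags and those of experiment #2 held 9359994 to 20914855. Slow and fast muscle fibre markers, 6 of 6 each, were at high level in every group, with sums of 5784 to 15257 TPM (slow) and 7459 to 16697 TPM (fast) in experiment #1. The macrophage sum (5 of 6 markers, none for *Adgre1*) was 115 to 347 TPM in the HiT libraries against 30.8 to 83.7 TPM in the other groups of experiment #1, and its part in the HiT levels of the members was not tested. None of the 4 satellite cell markers had a cluster.

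All 8 member clusters had tags in all 38 libraries. *Slc1a5* had the highest mean over the 28 libraries of experiment #1 at 64.4 TPM, followed by *Slc38a2* exon 1 (28.8), *Slc3a2* (25.7), *Slc38a4* (12.8), *Slc7a2* (10.8), *Slc43a1* (8.69), *Slc38a2* exon 2 (5.64) and *Slc36a1* (4.09). The median cluster of the whole table stood at 16.7 TPM, so 3 of the members were above it and 5 below.

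**Figure D1:**
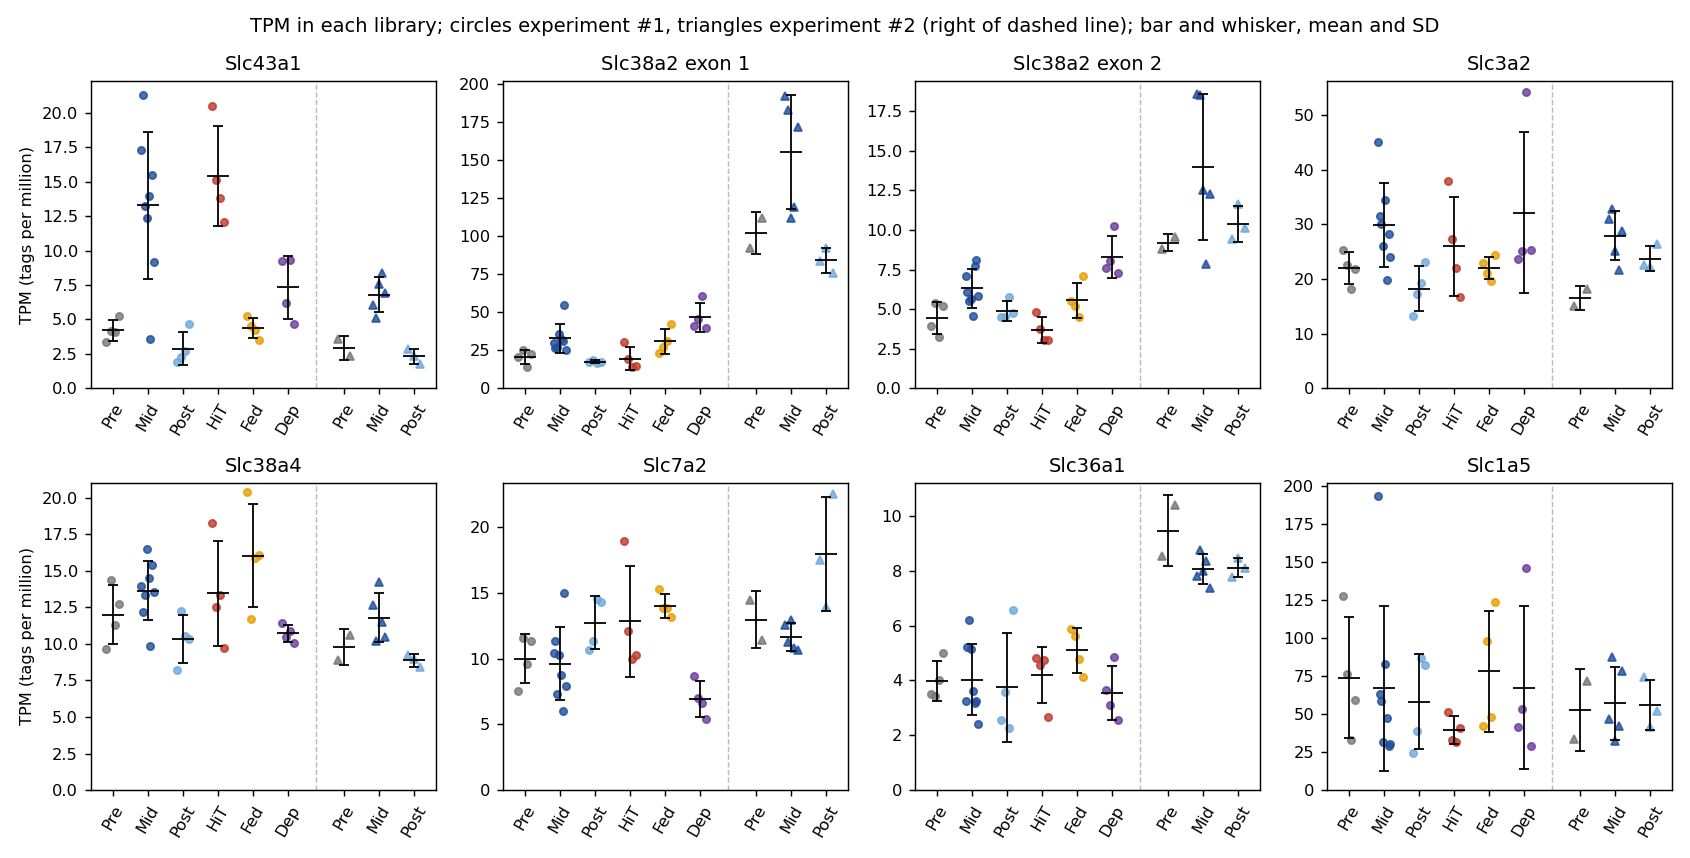
TPM of the 8 member clusters in each of the 38 libraries by group (a linear axis for each cluster), with 1 point per mouse, circles for experiment #1, triangles right of the dashed line for experiment #2, and a bar and whisker at the group mean and SD. In experiment #1 *Slc43a1* is high in HiT (12.1 to 20.5 TPM) and in 7 of 8 Mid libraries, and *Slc38a2* exon 1 is highest in Dep (39.9 to 60.6 TPM).

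From the Pre to Mid, transporter promoters that changed were all up-regulated. In experiment #1, 4 of the 8 clusters passed FDR 0.05 in edgeR's quasi-likelihood test with Benjamini-Hochberg adjustment over all clusters (*Slc43a1*, both clusters of *Slc38a2*, and *Slc3a2*), where 30.2% of all 10776 tested clusters changed and 15.4% rose. From the Mid to Post, 4 of 8 were down-regulated (*Slc43a1*, *Slc38a2* exon 1, *Slc3a2* and *Slc38a4*) against 35% of all clusters changed in either direction and 17.5% down-regulated. The members had a median log2 fold change of 0.39 (Pre to Mid) and −0.41 (Mid to Post), beside 0.0057 and −0.014 over all clusters. These comparisons share the Mid libraries.

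Against HiT and Fed, some members were higher and 1 was lower in Mid, in shares near those of all clusters. From the HiT to Mid, 3 of 8 changed (both *Slc38a2* clusters higher, *Slc7a2* lower; 41% of all clusters). From the Fed to Mid, 3 of 8 changed (*Slc43a1* and *Slc3a2* higher, *Slc7a2* lower; 35.2% of all clusters). From the Mid to Dep, 1 of 8 changed, *Slc38a2* exon 1, which was higher in Dep, against 2.03% of all clusters in either direction and 1.16% higher. No member changed from the Pre to Post, in which 1.85% of all clusters did, nor from the Pre to Fed, in which 11.2% did; at an unadjusted p under 0.05 these comparisons had 1 and 3 members, and DESeq2 called 0 and 2. In the test of any difference among the 6 groups, 6 of 8 differed, all but *Slc36a1* and *Slc1a5*, against 70.6% of all clusters.

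The remaining pairs of groups set the order of the levels. From the Pre to HiT 3 of 8 members were higher (*Slc43a1*, *Slc7a2* and *Slc38a4*; 33.4% of all clusters changed and 18.5% higher), and from the Pre to Dep 4 of 8 (*Slc43a1*, *Slc3a2* and both *Slc38a2* clusters; 25.8% and 13.7%). Between HiT and Fed 2 of 8 differed (43.2% of all clusters), between HiT and Dep 4 of 8 (26.5%) and between Fed and Dep 6 of 8 (38.6%), all but *Slc36a1* and *Slc1a5*. Compared with Post, 3 of 8 were higher in HiT (29.2% of all clusters changed, 16.7% higher), 2 of 8 were higher in Fed (22.2% and 11.5%), and 5 of 8 differed in Dep (24.6%), 4 of them higher.

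**Figure D2:**
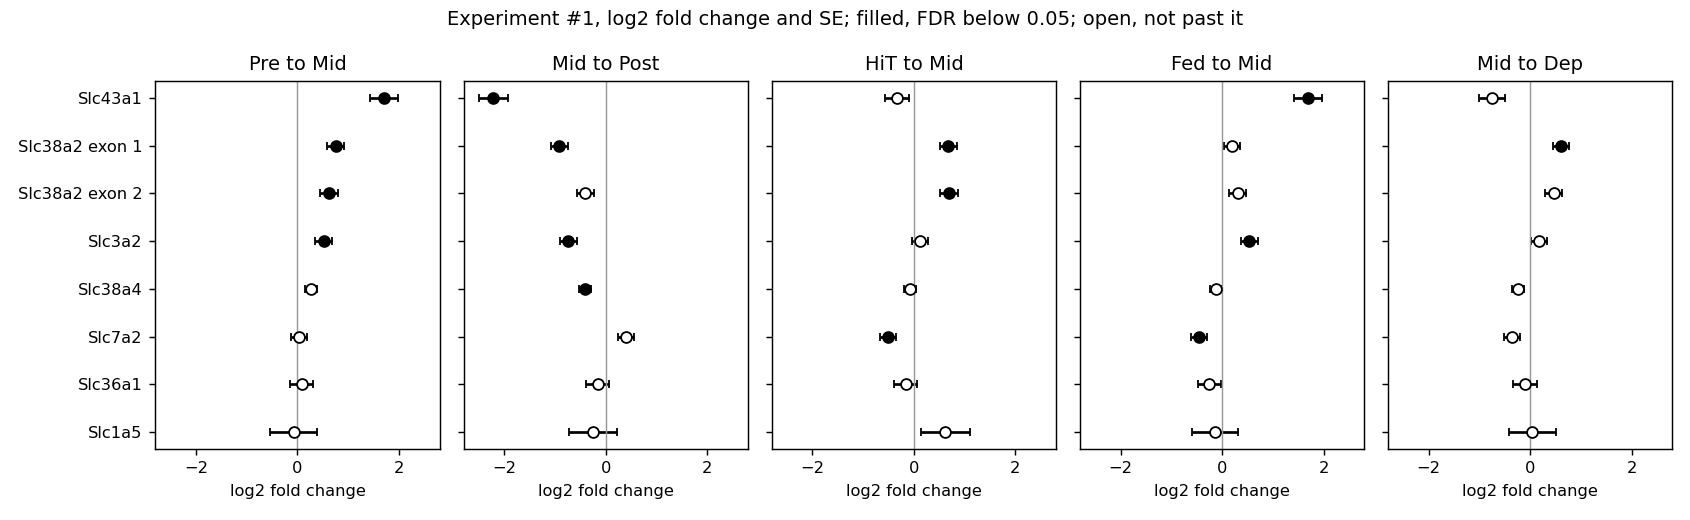
Log2 fold change with its standard error for the 8 member clusters in the 5 comparisons with Mid in experiment #1, where filled points passed FDR 0.05 in edgeR's quasi-likelihood test. *Slc43a1* lies far to the right against Pre (1.71) and against Fed (1.68), and left of 0 against HiT (−0.33, open).

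*Slc43a1*, which carries leucine, phenylalanine and other large neutral amino acids, had the largest log2 fold change of the members against Pre, Post and Fed. It stood at 3.38, 4.19, 4.11 and 5.23 TPM in Pre and at 3.55, 13.6 and 21.3 TPM (lowest, median, highest) in Mid. Post libraries had 1.92, 2.29, 2.68 and 4.67 TPM, Fed libraries 5.25, 4.49, 4.23 and 3.50 TPM. HiT libraries had 20.5, 15.1, 13.8 and 12.1 TPM, and Dep libraries 9.23, 6.18, 9.28 and 4.70 TPM. Every HiT library was above every Pre, Post, Fed and Dep library, and 1 Mid library (Mid 6, 3.55 TPM) lay among the Pre and Fed values while the other 7 were above them all. Mid was 3.28-fold above Pre (log2 fold change 1.71, SE 0.27, FDR 4.02e-05) and 3.21-fold above Fed (1.68, SE 0.27, FDR 3.81e-05), and the promoter fell from the Mid to Post (−2.22, SE 0.29, FDR 1.45e-06).

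From the Pre to HiT, *Slc43a1* rose 4.13-fold (log2 fold change 2.05, SE 0.30, FDR 1e-05). HiT and Mid were not separated (−0.33, 95% interval −0.81 to 0.14, FDR 0.282), nor were Fed and Pre (0.03, interval −0.57 to 0.63, FDR 0.967). Dep lay between: it was above Pre (0.97, SE 0.30, FDR 0.0188) and below HiT (−1.08, SE 0.29, FDR 0.00663), while Mid to Dep did not pass (−0.75, SE 0.26, FDR 0.119). The Pre to Dep call was lost when Dep 1, Pre 1 or Pre 2 was left out (highest FDR 0.0683), and the Mid to Dep difference passed only when Mid 6 was left out. In order of mean level the groups were HiT, Mid, Dep, Fed, Pre and Post, and the only neighbours that differed past FDR 0.05 were Dep and Fed (0.94, FDR 0.016, lost without Dep 1 or Fed 4).

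*Slc3a2*, the CD98 heavy chain, rose from the Pre to Mid by less than *Slc43a1*. Pre libraries had 25.3, 22.5, 18.3 and 21.9 TPM, and Mid libraries 19.9, 29.2 and 45.1 TPM (lowest, median, highest). Post libraries had 13.3, 17.3, 19.2 and 23.2 TPM, so Pre, Mid and Post overlapped. Mid was 1.43-fold above Pre (log2 fold change 0.52, SE 0.16, FDR 0.0182), and the level fell from the Mid to Post (−0.74, SE 0.17, FDR 0.00115). The Pre to Mid call was lost without Pre 2 or Pre 3 (highest FDR 0.0637) and with library size alone in place of TMM scaling (FDR 0.196).

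The 4 Fed libraries had 22.9, 21.1, 19.6 and 24.3 TPM of *Slc3a2*, close to Pre, and Mid was above Fed (0.54, SE 0.16, FDR 0.0126; lost without Fed 3, FDR 0.0568). HiT was spread from 16.8 to 37.9 TPM and was not separated from Mid (0.13, interval −0.19 to 0.44, FDR 0.558). Of the Dep libraries, 3 had 23.8, 25.2 and 25.3 TPM and Dep 3 had 54.2 TPM. The Pre to Dep difference (0.69, SE 0.19, FDR 0.00727) became 0.43 with FDR 0.062 without Dep 3. Light chain to heavy chain ratios could not be formed, as neither *Slc7a5* nor *Slc7a8* had a cluster.

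The exon 1 promoter of *Slc38a2*, a sodium-coupled importer of small neutral amino acids, was highest in mice deprived of torpor. It had 20.7, 25.5, 14.4 and 22.7 TPM in Pre and 25.5, 30.6 and 54.6 TPM (lowest, median, highest) in Mid. Post libraries had 17.2, 18.7, 16.8 and 17.6 TPM, and HiT libraries 30.5, 19.3, 13.96 and 14.6 TPM. Fed libraries had 23.4, 27.5, 30.8 and 42.3 TPM, and Dep libraries 41.1, 45.9, 60.6 and 39.9 TPM. The lowest Mid library was level with the highest Pre library at 25.5 TPM, Mid and Post did not overlap, and Dep lay above all Pre, Post and HiT libraries but overlapped the upper end of Mid and Fed.

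*Slc38a2* exon 1 was 1.68-fold higher in Mid than in Pre (log2 fold change 0.75, SE 0.17, FDR 0.00121) and fell again from the Mid to Post (−0.91, SE 0.17, FDR 0.000149). Mid exceeded HiT (0.68, SE 0.17, FDR 0.00204) but was not separated from Fed (0.20, interval −0.12 to 0.52, FDR 0.357). The calls against Pre, Post and HiT held with any library left out, and Pre to Fed lay just outside the threshold (0.55, SE 0.19, FDR 0.0547). Dep was 2.55-fold above Pre (1.35, SE 0.19, FDR 8.81e-06) and 1.51-fold above Mid (0.60, SE 0.16, FDR 0.0449). The Mid to Dep call was lost in 19 of the 28 fits that left out 1 library (highest FDR 0.127) and in the fit of Mid and Dep alone. By the TMM-scaled fitted level the order was Dep, Mid, Fed, HiT, Pre and Post (by mean TPM, Pre at 20.8 lay above HiT at 19.6), and in the fitted order Dep differed from Mid and Fed from HiT (FDR 0.0418, lost in 6 of 28 such fits), and Mid and Fed, HiT and Pre, and Pre and Post were not separated.

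Tags at the exon 2 cluster of *Slc38a2* also rose in Mid and Dep, at a lower level. Pre libraries had 3.96, 5.40, 3.24 and 5.19 TPM, Mid 4.54, 5.94 and 8.13 TPM (lowest, median, highest), and Dep 7.61, 8.03, 10.2 and 7.28 TPM, the last above every Pre library. Post libraries had 4.48, 4.51, 5.78 and 4.77 TPM, HiT 4.85, 3.77, 3.08 and 3.03 TPM, and Fed 5.50, 5.19, 4.48 and 7.08 TPM. Log2 fold changes were 0.62 (SE 0.17, FDR 0.00792) from the Pre to Mid, 0.70 (SE 0.17, FDR 0.00237) from the HiT to Mid and 1.08 (SE 0.20, FDR 0.000191) from the Pre to Dep. The Mid to Post decrease did not pass (−0.40, SE 0.17, FDR 0.0707).

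The share of *Slc38a2* tags that fell in the exon 2 cluster was 17.6% ± 1.15 in Pre (SD, n = 4), 16.5% ± 3.08 in Mid (n = 8) and 21.8% ± 2.64 in Post (n = 4). It was 16.4% ± 1.90 in HiT, 15.5% ± 2.71 in Fed and 15.1% ± 0.54 in Dep (n = 4 each). Mid libraries ranged from 12.2% to 19.9% and Post libraries had 20.7%, 19.5%, 25.5% and 21.3%, with an overlap of 1 Post library. The Mid to Post difference of 5.28 percentage points had p = 0.00808 in a two-sided exact permutation test over 495 divisions (adjusted p = 0.0404 over 5 comparisons), and it was 4.02 to 6.05 points with each library left out in turn. From the Pre to Mid (−1.15 points, exact p = 0.501), HiT to Mid (0.13, exact p = 0.925), Fed to Mid (1.00, exact p = 0.582) and Mid to Dep (−1.38, exact p = 0.396) the share did not differ past the threshold. In experiment #2 the exon 2 share was 8.31% in Pre (n = 2), 8.19% ± 1.68 in Mid (n = 5) and 11.01% ± 0.84 in Post (n = 3).

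**Figure D3:**
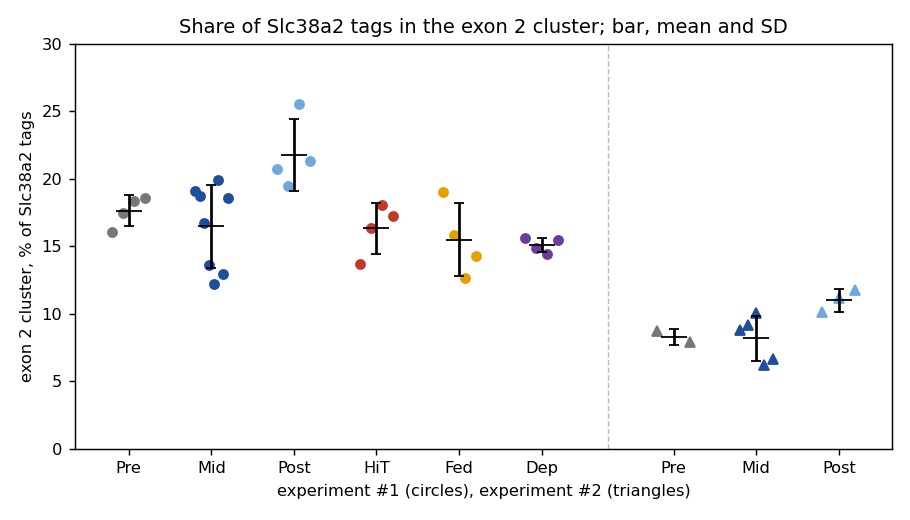
Share (%) of *Slc38a2* tags that fell in the exon 2 cluster, with 1 point per library and a bar and whisker at the group mean and SD, for the 6 groups of experiment #1 and the 3 of experiment #2. Post lies highest in each experiment (21.8% and 11.01%), and every experiment #2 library is below every experiment #1 library.

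*Slc38a4*, the other sodium-coupled importer, moved little. Pre libraries had 9.65, 14.3, 11.3 and 12.7 TPM, Mid 9.86, 13.8 and 16.5 TPM (lowest, median, highest), and Post 8.23, 12.3, 10.6 and 10.4 TPM. HiT libraries had 18.3, 12.5, 13.4 and 9.69 TPM, Fed 20.4, 11.7, 15.9 and 16.1 TPM, and Dep 11.5, 10.5, 10.9 and 10.1 TPM. All 4 Fed libraries were above all 4 Dep libraries, and the other groups overlapped their neighbours. The level fell from the Mid to Post (log2 fold change −0.41, SE 0.12, FDR 0.00743), a call lost with library size alone (FDR 0.103). Pre to Mid did not pass (0.27, interval 0.04 to 0.50, FDR 0.0792), nor did HiT to Mid (−0.08, interval −0.30 to 0.15, FDR 0.619). Pre to HiT was called at 0.35 (FDR 0.0447) but lost in 13 of 28 fits with 1 library left out.

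*Slc7a2*, a carrier of arginine and lysine, was the member that lay lower in Mid and Dep mice than in the Fed or HiT mice of the same day. HiT libraries had 18.98, 12.1, 9.95 and 10.3 TPM, and Fed libraries 15.3, 13.9, 13.8 and 13.1 TPM. Mid libraries had 6.00, 9.50 and 15.03 TPM (lowest, median, highest), and Dep libraries 8.70, 7.004, 6.65 and 5.43 TPM. Pre libraries had 7.56, 11.6, 9.57 and 11.3 TPM, and Post libraries 10.7, 11.3, 14.5 and 14.3 TPM. All Fed and all HiT libraries were above all Dep libraries, whereas Mid overlapped each of these groups.

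Levels of *Slc7a2* were lower in Mid than in HiT (log2 fold change −0.51, SE 0.16, FDR 0.0102) and than in Fed (−0.45, SE 0.16, FDR 0.0266), and lower in Dep than in Fed (−0.81, SE 0.19, FDR 0.00145). The HiT to Mid call was lost without HiT 1 or HiT 4 (highest FDR 0.0691) and with library size alone (FDR 0.122), and the Fed to Mid call without Fed 1, Fed 2, Mid 6 or Mid 8 (highest FDR 0.103) and when Fed and Mid were fitted alone (FDR 0.0611). HiT was above Pre (0.54, SE 0.18, FDR 0.0257; lost without HiT 1, HiT 4 or Pre 1, highest FDR 0.102). Pre to Mid gave 0.02 (interval −0.29 to 0.34, FDR 0.934). Mid to Post lay just outside the threshold (0.39, SE 0.16, FDR 0.0532).

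*Slc36a1*, the proton-coupled exporter of the lysosome, did not pass the test of any difference among the 6 groups (FDR 0.598). Group ranges were 3.42 to 5.0 TPM in Pre, 2.43 to 6.19 in Mid, 2.26 to 6.58 in Post, 2.68 to 4.82 in HiT, 4.11 to 5.86 in Fed and 2.54 to 4.86 in Dep, all overlapping. These rest on 59 to 193 tags a library. The Pre to Mid log2 fold change was 0.09 with a 95% interval of −0.36 to 0.54.

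*Slc1a5*, the glutamine exchanger, varied widely within each group and did not pass that test either (FDR 0.759). Pre libraries had 127, 76.4, 32.8 and 59.1 TPM, Mid 29.2, 53.0 and 193 TPM (lowest, median, highest), and Post 24.2, 38.8, 87.1 and 82.3 TPM. HiT libraries had 51.6, 32.8, 31.8 and 41.1 TPM, Fed 42.3, 98.2, 47.8 and 124 TPM, and Dep 41.3, 53.0, 146 and 29.2 TPM. High libraries were scattered over the groups, with 193 TPM in Mid 1, 146 in Dep 3, 127 in Pre 1 and 124 in Fed 4. The Pre to Mid log2 fold change was −0.07 with a 95% interval of −0.98 to 0.83.

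This spread of *Slc1a5* moved with fat cell markers. The summed level of 6 of 6 adipocyte markers (*Adipoq*, *Plin1*, *Cidec*, *Lep*, *Cfd* and *Fabp4*) ran from 312 to 1042 TPM in Pre, 162 to 1517 in Mid, 205 to 920 in Post, 251 to 593 in HiT, 266 to 1072 in Fed and 240 to 1967 in Dep. Within-group deviations of log2 *Slc1a5* and of the log2 marker sum had Pearson's r = 0.948 and Spearman's rho = 0.932 over 28 libraries (permutation p = 1e-05 for each, the smallest that 100000 permutations give; adjusted p = 0.00056 over 56 relations). Without the 2 libraries farthest from the median of the marker sum, r was 0.925. In experiment #2 the same relation had r = 0.971 and rho = 0.952 over 10 libraries (permutation p = 0.0008, adjusted p = 0.0448), and r = 0.955 without 2 libraries. The relation was sought after the values had been seen, and the part of fat cells in the *Slc1a5* level was not tested.

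**Figure D4:**
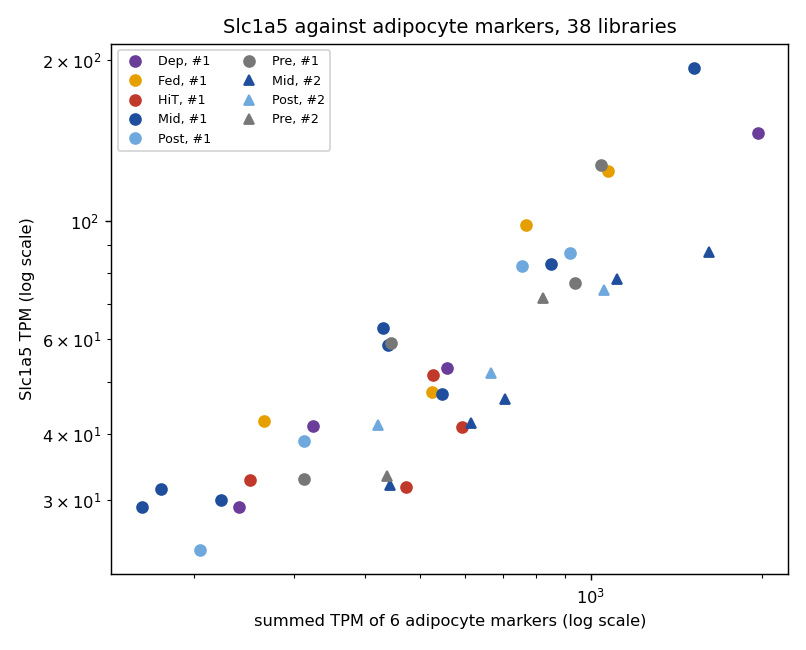
*Slc1a5* (TPM, log axis) against the summed TPM of the 6 adipocyte markers (log axis), with 1 point per library, coloured by group, circles for experiment #1 and triangles for experiment #2. Points rise together from about the lowest marker sum (162 TPM) to the highest (1967 TPM), whatever the group.

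Members also moved with other markers within groups, and 16 of the 56 relations passed a permutation adjusted p of 0.05 in experiment #1. Levels and sums were TPM without TMM scaling, and how many clusters of other genes would pass was not counted. Every member cluster but *Slc38a2* exon 2 (permutation adjusted p = 0.125) passed with the endothelial sum. *Slc3a2* followed the endothelial sum (r = 0.773, rho = 0.741, permutation adjusted p = 0.00084, n = 28; r = 0.735 without the 2 farthest libraries), as did *Slc43a1* (r = 0.625, rho = 0.692, permutation adjusted p = 0.00532; 0.615) and *Slc38a2* exon 1 (r = 0.624, rho = 0.621, permutation adjusted p = 0.0239; 0.496). *Slc3a2* passed with the adipocyte sum as well (r = 0.6002, rho = 0.556, permutation adjusted p = 0.0239), and r was 0.383 without the 2 farthest libraries. *Slc38a4* followed the fast fibre sum (r = 0.759, rho = 0.651, permutation adjusted p = 0.00485; 0.649). *Slc43a1* also moved with the red blood cell sum (r = 0.435, rho = 0.546, permutation adjusted p = 0.0321; 0.623). In the 10 libraries of experiment #2 the relation of *Slc43a1* to the endothelial sum had the opposite sign (r = −0.906, rho = −0.891, permutation p = 0.00415, adjusted p = 0.0775; r = −0.859 without 2 libraries). *Slc3a2* and the endothelial sum had r = 0.784 there (rho = 0.794, permutation p = 0.0297, adjusted p = 0.286, and r = 0.665 without 2 libraries). With the adipocyte sum *Slc3a2* had r = 0.616 there (rho = 0.648, permutation p = 0.107, adjusted p = 0.496, and r = 0.431 without 2 libraries). Only the relation of *Slc1a5* to the adipocyte sum passed the adjusted threshold in experiment #2. The endothelial sum (6 of 6 markers) was 254 to 338 TPM in Pre, 244 to 344 in Mid, 257 to 316 in Post, 222 to 353 in HiT, 316 to 373 in Fed and 232 to 336 in Dep, so Pre, Mid and Post overlapped. The red blood cell sum (5 of 6 markers) was 3762 to 5625 TPM in Pre, 2371 to 4466 in Mid, 1661 to 2886 in Post, 1305 to 3178 in HiT, 2718 to 12643 in Fed and 1832 to 4105 in Dep, so Pre lay above Post and HiT without overlap. In experiment #1 *Slc7a2* and *Slc43a1* passed with the fast fibre sum (r = 0.602 and 0.442, permutation adjusted p = 0.0189 and 0.0343). *Slc7a2*, *Slc38a2* exon 1 and *Slc1a5* passed with the macrophage sum (r = 0.496, 0.549 and 0.471, permutation adjusted p = 0.0455, 0.0455 and 0.0387). In experiment #2 *Slc7a2* had r = 0.826 with the fast fibre sum and 0.269 with the macrophage sum (permutation adjusted p = 0.0775 and 0.815). The part of the marker sums in the group differences was not tested.

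Experiment #2 gave the same directions in independent mice for the members that changed in experiment #1. *Slc43a1* had 3.56 and 2.33 TPM in Pre, 6.08, 5.08, 7.56, 8.36 and 6.95 TPM in Mid, and 2.86, 2.37 and 1.79 TPM in Post. *Slc3a2* had 15.03 and 18.2 TPM in Pre, 30.96, 32.8, 25.2, 21.7 and 28.9 TPM in Mid, and 22.5, 22.3 and 26.4 TPM in Post. *Slc38a2* exon 1 had 92.1 and 111.7 TPM in Pre, 192, 183, 111.8, 119 and 172 TPM in Mid, and 83.9, 92.6 and 75.8 TPM in Post. Mid lay above Pre for these clusters, by 0.1 TPM between the nearest *Slc38a2* exon 1 libraries, and above Post for *Slc43a1* and *Slc38a2* exon 1. In *Slc38a2* exon 2 and *Slc38a4*, Mid overlapped Pre. The share of all clusters without overlap is not given, and Pre held only 2 libraries.

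From the Pre to Mid of experiment #2, 2 of 8 members rose, against 9.74% of all clusters changed and 5.3% higher: *Slc43a1* (log2 fold change 1.26, SE 0.30, FDR 0.0263) and *Slc3a2* (0.81, SE 0.16, FDR 0.0136). *Slc38a2* exon 1 had 0.68 (SE 0.24, FDR 0.1). Both calls were lost without Pre 5 or Pre 6, and that of *Slc43a1* also without Mid 12 or Mid 13 (highest FDR 0.214 for *Slc43a1* and 0.133 for *Slc3a2*). From the Mid to Post, 4 of 8 changed against 16.4%: *Slc43a1* (−1.60, SE 0.26, FDR 0.00218), *Slc38a2* exon 1 (−0.97, SE 0.20, FDR 0.00891) and *Slc38a4* (−0.48, SE 0.12, FDR 0.0235) fell, and *Slc7a2* rose (0.55, SE 0.14, FDR 0.0254). Calls of *Slc38a4* were lost in 5 and of *Slc7a2* in 3 of 10 fits with 1 library left out. No member changed from the Pre to Post (0.111% of all clusters; 2 members at an unadjusted p under 0.05).

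Lane went with group in experiment #2, as all Pre libraries and Mid 9 to Mid 12 were on lane 3 and Mid 13 and all Post libraries on lane 4. With lane as a term, *Slc3a2* kept its Pre to Mid call (0.78, FDR 0.0285) and *Slc43a1* its Mid to Post call (−1.72, FDR 0.0333), while *Slc43a1* from the Pre to Mid (1.23, FDR 0.0516), *Slc38a2* exon 1 (−1.20, FDR 0.052), *Slc38a4* (−0.40, FDR 0.29) and *Slc7a2* (0.59, FDR 0.22) did not pass. A difference in the change between the experiments was not detected for any member in either comparison: 0 of 8 interaction terms passed (0% of all clusters) in edgeR's quasi-likelihood test, 0 had an unadjusted p under 0.05, and the smallest p was 0.0743, for *Slc3a2* from the Mid to Post (0.39, interval −0.02 to 0.81).

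Levels, in contrast to changes, stood apart between the experiments. Over Pre, Mid and Post, *Slc38a2* exon 1 was 4.78-fold higher in experiment #2 (log2 difference 2.26, SE 0.12, FDR 9.25e-15), *Slc36a1* 2.18-fold (1.12, FDR 1.87e-07) and *Slc38a2* exon 2 2.11-fold (1.07, FDR 1.86e-07). *Slc43a1* was lower (−0.58, SE 0.21, FDR 0.0152). This comparison was added after the values were seen, 73.3% of all clusters differed in it, and mice, run and depth cannot be told apart, so levels were compared between groups only within an experiment.

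**Figure D5:**
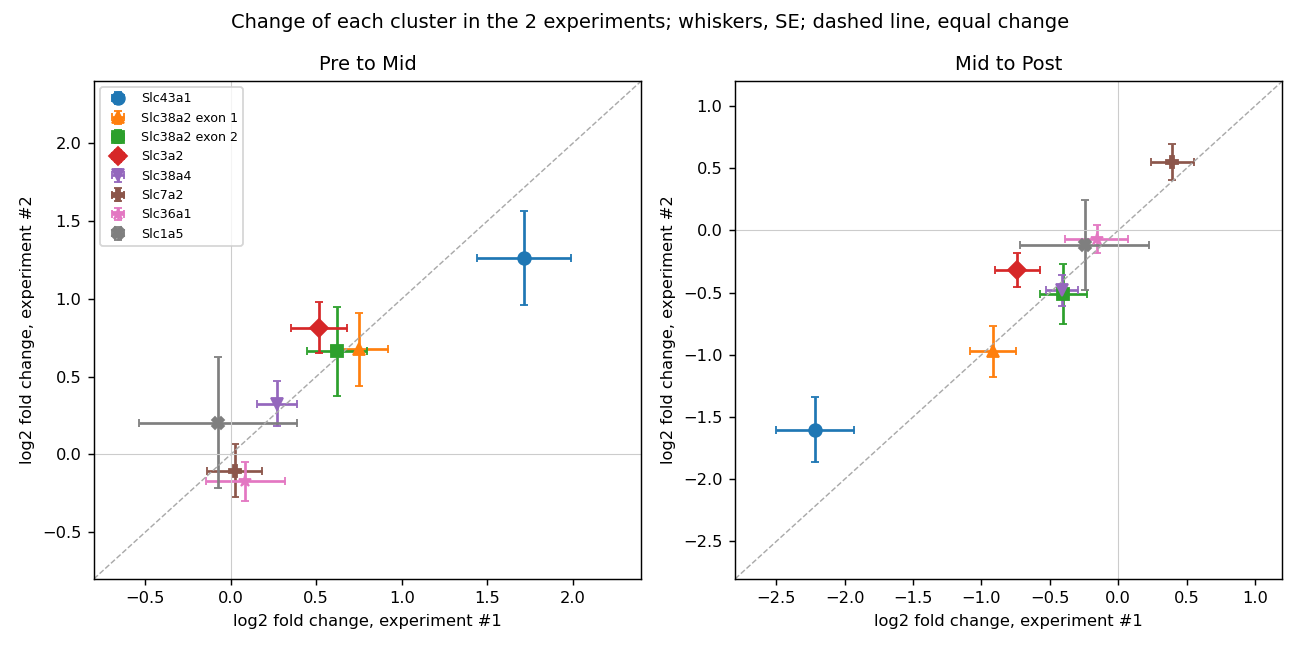
Log2 fold change of each member cluster in experiment #1 and in experiment #2, for entry into torpor (Pre to Mid) and return from it (Mid to Post), with standard errors. *Slc43a1* moves furthest in each comparison of both experiments (1.71 and 1.26, −2.22 and −1.60).

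Of 45 further amino acid transporter genes listed, 9 had a cluster, and from the Pre to Mid 3 were higher and 1 lower (30.2% of all clusters changed), with a median log2 fold change of 0.098. *Slc1a1*, a glutamate carrier, rose from 3.84 to 5.68 TPM in Pre to 5.43 to 11.2 TPM in Mid (log2 fold change 0.93, SE 0.19, FDR 0.000494). *Slc38a3*, a glutamine carrier, rose from 76.2 to 112 TPM to 90.5 to 140 TPM (0.52, SE 0.12, FDR 0.00161), and *Slc43a2*, the closest relative of *Slc43a1*, rose by 0.38 (SE 0.10, FDR 0.00607). *Slc16a10*, a carrier of aromatic amino acids, fell by 0.62 (SE 0.15, FDR 0.00311). *Slc43a2* was higher in Mid than in HiT (0.50, SE 0.10, FDR 0.000358), where *Slc43a1* had −0.33, and the difference between the genes was not tested. From the Mid to Post 0 of the 9 rose and 2 fell (35% of all clusters changed; 2 had an unadjusted p under 0.05), from the HiT to Mid 3 were higher and 2 lower (41%), and likewise 3 and 2 relative to Fed (35.2%). Between Mid and Dep 0 of the 9 changed in edgeR's quasi-likelihood test (2.03% of all clusters), with 2 at an unadjusted p under 0.05. In experiment #2, 0 of the 9 changed from the Pre to Mid (9.74% of all clusters changed), with 3 at an unadjusted p under 0.05. From the Mid to Post of experiment #2, 0 rose and 1 fell (16.4%). The median log2 fold changes there were 0.106 and 0.125, the second beside −0.119 in experiment #1.

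Genes of the amino acid shortage response, in which *Slc38a2* is a known target, had 15 clusters for 18 genes listed. From the Pre to Mid 6 rose and 1 fell (30.2% of all clusters changed, 15.4% higher), with a median log2 fold change of 0.22 beside 0.0057 over all clusters. From the Mid to Post 1 rose and 7 fell (35% of all clusters changed, 17.5% lower), with a median of −0.29 beside −0.014. *Ddit4*, an inhibitor of mTORC1, rose by 2.65 (SE 0.43, FDR 5.07e-05), *Chac1*, which breaks down glutathione, by 1.66 (SE 0.37, FDR 0.00141), and *Eif4ebp1*, a brake on translation, by 1.03 (SE 0.14, FDR 4.41e-06). *Sesn2*, a leucine sensor, rose by 0.94 (SE 0.33, FDR 0.0319), while *Ddit3*, the stress factor CHOP, fell by 0.67 (SE 0.12, FDR 0.000221). From the HiT to Mid 5 were higher and 3 lower (41% of all clusters changed), and relative to Fed 6 and 1 (35.2%). Between Mid and Dep 0 changed in edgeR's quasi-likelihood test (2.03% of all clusters), with 4 at an unadjusted p under 0.05. In experiment #2, 5 rose and 1 fell from the Pre to Mid (9.74% of all clusters changed).

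Genes of lysosomal amino acid sensing, the compartment of *Slc36a1*, had 19 clusters for 24 genes and moved both ways, with 5 higher and 3 lower from the Pre to Mid (30.2% of all clusters changed; median −0.05 beside 0.0057 over all clusters). *Sesn1* rose by 2.19 (SE 0.24, FDR 4.95e-07), *Fnip1* by 1.26 (SE 0.10, FDR 7.94e-09), *Mtor* by 0.54 (SE 0.09, FDR 6.42e-05) and *Flcn* by 0.44 (SE 0.09, FDR 0.000723). *Castor2*, an arginine sensor homologue, fell by 0.78 (SE 0.10, FDR 1.77e-06), and the Ragulator subunits *Lamtor4* and *Lamtor2* fell by 0.36 and 0.31 (SE 0.07 and 0.06, FDR 0.000441 and 0.000412). From the Mid to Post 4 rose and 5 fell (35% of all clusters changed), from the HiT to Mid 8 were higher and 3 lower (41%), relative to Fed 4 and 3 (35.2%), and 1 was higher in Dep than in Mid (2.03%).

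Over the 28 libraries of experiment #1, the clusters of other genes whose log2 level ran most like *Slc43a1* were *Gm17251* (Pearson's r = 0.91), *Ehhadh* (0.91), *Rrs1* (0.90), *Npc1* (0.89) and *Tacc2* (0.89). *Ehhadh*, an enzyme of peroxisomal fatty acid oxidation, averaged 3.47 TPM in Pre, 10.1 in Mid, 3.12 in Post, 8.11 in HiT, 4.09 in Fed and 5.59 in Dep, the same order of means as *Slc43a1* but with HiT and Mid exchanged. For *Slc38a2* exon 1 they were *Osgin1* (0.87), *Ndel1* (0.87), *Atf3* (0.86), *Zfp346* (0.84) and *Zfp770* (0.84). *Atf3*, a stress-induced transcription factor, averaged 7.25 TPM in Pre, 16.5 in Mid, 5.58 in Post, 9.03 in HiT, 8.41 in Fed and 28.01 in Dep, and like *Slc38a2* it was highest in Dep. These likenesses are descriptions over libraries that share groups and depth. The genes were chosen by likeness over the same libraries, so a like order of group means is no separate result.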

How the data were processed

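Soleus RNA of 38 mice was read by nAnT-iCAGE. The authors mapped the reads to mm10 (GRCm38) with BWA and HISAT2 and formed tag clusters with PromoterPipeline; tool versions are not given in the sources used here. The deposited table holds raw tag counts per cluster and library. The TPM deposited beside them are the same counts per 1000000 tags of the library. Column names matched every library, and groups came from the titles.

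Members were found by a 500 bp window around GENCODE vM21 5′ ends. The members and lists were chosen with earlier results of these data known. Counts were fitted with edgeR 4.0.16 (R 4.3.3) by quasi-likelihood with TMM scaling, keeping clusters with any tag: experiment #1 in 1 fit of 28 libraries, experiment #2 in another, and the interaction with experiment on the Pre, Mid and Post libraries. P-values were adjusted by Benjamini-Hochberg over all 10776 (experiment #1) or 10816 (experiment #2) clusters, with FDR 0.05 as the threshold. SE is the absolute log2 fold change over the root of F, and intervals are 1.96 SE at 95%. The scripts were tested on simulated data. Shares were compared by exact permutation of libraries. Counts of 23 to 5124 tags lie behind each member value, so low members carry more counting error.

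All members were named. Of each other list, up to 4 clusters in each direction with the largest change from the Pre to Mid past the threshold were named, and the 5 nearest patterns of the 2 members with the smallest 6-group p. Marker lists for slow and fast fibres, adipocytes, macrophages, endothelium, tendon, red blood cells and satellite cells were summed as TPM. Tendon sums (6 of 6 markers) were 574 to 693 TPM in Pre, 476 to 740 in Mid, 531 to 652 in Post, 396 to 895 in HiT, 413 to 671 in Fed and 461 to 565 in Dep, so Pre and Dep did not overlap. Alternatives covered tool (DESeq2 1.42.0), scaling, filter, fit, window, replicate block, lane and single libraries; the level comparison between experiments and the marker relations were added after the values were seen. All 72 pairs of libraries within a group differed beyond sampling noise (chi-square per cluster at least 12.4).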

Additional observations from a re-analysis of the deposited data

Results flagged for a closer look

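Of 56 groups of 4 to 8 libraries examined, 4 held a library set apart from its group in a member cluster by Dixon's test, where chance alone would flag about 1 in 20, or 2.8 groups. *Slc1a5* stood at 193 TPM in Mid 1, against 29.2 to 83.0 TPM in the other 7 Mid libraries of experiment #1. *Slc3a2* stood at 54.2 TPM in Dep 3, against 23.8 to 25.3 TPM in the other Dep libraries. *Slc38a2* exon 1 stood at 54.6 TPM in Mid 7, against 25.5 to 35.5 TPM in the others. *Slc36a1* was low in HiT 4 at 2.68 TPM, against 4.57 to 4.82 TPM. Both Mid 1 and Dep 3 also had the highest adipocyte marker sum of their group, at 1517 and 1967 TPM, and the part of fat cells in these values was not tested.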

How the results depend on the processing

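Of 50 called member differences, none changed sign under any alternative, 26 stayed past the threshold under every alternative that kept all libraries, and 33 with each library left out in turn. With library size alone in place of TMM, members called fell to 2 from the Pre to Mid. There 534 of all clusters were higher and 924 lower, against 1659 and 1594 with TMM. From the Mid to Dep 0 members were called (all clusters, 7 higher and 2 lower), from the Pre to HiT 1 (584 and 1390) and from the Pre to Dep 2 (365 and 1079). The count was 3 from the Fed to Dep (486 and 2364), 1 from the Post to HiT (634 and 788) and 0 from the Post to Fed (214 and 60). With that scaling the median log2 fold change of all clusters ran from −0.23 (Fed to Dep) to 0.21 (HiT to Fed). Fitting the compared groups alone gave 0 from the Mid to Dep and 1 from the Post to Fed. The fit of all 38 libraries gave 1 from the Pre to Post and 2 from the Pre to Fed, and DESeq2 and the likelihood ratio test 2 from the Pre to Fed. Upper-quartile scaling gave 1 from the Pre to HiT (all clusters, 1508 higher and 2139 lower). In experiment #2, lane as a term gave 1 for Pre to Mid and 1 for Mid to Post. Among the alternatives, including those that left out a library, calls over all clusters were counted only for scaling. The cause of these shifts was not tested.

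Same-numbered libraries of different groups did not deviate together (60 pairs, r −0.41 to 0.50, median −0.008), so the numbers do not pair mice; with the replicate block, 3 members were called from the Mid to Dep and 1 from the Pre to Fed. With each library left out, members called numbered 3 to 5 (Pre to Mid), 4 to 5 (Mid to Post), 2 to 3 (HiT to Mid), 2 to 3 (Fed to Mid), 0 to 3 (Mid to Dep), 1 to 3 (Pre to HiT), 0 to 2 (Pre to Fed), 3 to 4 (Pre to Dep), 1 to 3 (HiT to Fed), 4 to 5 (HiT to Dep), 5 to 6 (Fed to Dep), 2 to 3 (Post to HiT) and 2 to 3 (Post to Fed), and in experiment #2 0 to 3 (Pre to Mid) and 2 to 4 (Mid to Post). The ratio of light to heavy chain was not run.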
